A study of Rattus norvegicus with 12 samples.

Results

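The endothelin system was described here by 7 genes: the ligand genes Edn1, Edn2 and Edn3, the receptor genes Ednra and Ednrb, and the converting enzyme genes Ece1 and Ece2. Members were the probe sets whose array annotation gives exactly 1 gene symbol, equal to one of these names. That rule found 5 of the 7 genes, with 1 probe set each, among 14324 genes. The annotation used here names no probe set for Ednra or Ednrb, so neither receptor gene was analysed here. The 12 arrays came from neonatal cardiomyocytes of 2-day-old Sprague-Dawley rats, all from 1 litter and grown for 3 days before treatment. The 6 DEHP cultures then received 50 µg/mL DEHP in 0.1% DMSO for 3 days, and the 6 control cultures received 0.1% DMSO alone for the same time. DEHP is a phthalate ester that softens polyvinyl chloride and can pass from medical tubing and bags into blood, and the submitters describe this amount as relevant to the clinic. Replicates are separate cultures of 1 litter, so the tests measure the spread between cultures and arrays and not between litters.

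Endothelins are short peptides cut from longer precursors. Proprotein convertases such as furin free an inactive intermediate, big endothelin, and the membrane metalloproteases encoded by Ece1 and Ece2 trim it to the active peptide. The peptides act on the G protein-coupled receptors ETA and ETB. In the heart, endothelial cells, fibroblasts and cardiomyocytes can make endothelin-1, which acts through ETA and Gq on phospholipase C, raises contractile force and drives hypertrophic growth of cultured neonatal rat cardiomyocytes.

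The deposited values are ratios in which each probe set was divided by its median over the 12 arrays. The log2 ratios of a probe set therefore lie around 0 by construction, and where the groups do not overlap their nearest values mirror each other around 0. Only differences between arrays can be read, and the level of one gene cannot be set against that of another. For the same reason the labelled cell type could not be checked against the levels of its markers. A pair of arrays stood apart, with SDs of log2 ratios over all probe sets of 0.27 in DEHP replicate 6 and 0.37 in control replicate 5, against 0.15 to 0.19 in the other arrays. Values without either array are given beside the results they change.

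The sequences before the starts of Edn1 and Edn2 are shown because Edn1 carried most of the change in the family while its ligand paralogue Edn2 did not pass the test. They are from RefSeq, assembly GRCr8, written 5′ to 3′ on the strand of the gene, and hold the first 150 bases of the window that begins 250 bases before the annotated start. Edn1 lies on the minus strand (chr17:22666788-22666937) and Edn2 on the plus strand (chr5:139036326-139036475). Capitals mark matches to the motifs searched.
Edn1: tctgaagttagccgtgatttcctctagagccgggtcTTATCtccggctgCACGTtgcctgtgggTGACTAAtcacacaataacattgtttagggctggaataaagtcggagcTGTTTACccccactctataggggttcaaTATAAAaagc
Edn2: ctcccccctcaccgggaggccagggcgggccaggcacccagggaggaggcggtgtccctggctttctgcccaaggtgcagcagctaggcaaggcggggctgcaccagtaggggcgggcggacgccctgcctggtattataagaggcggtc

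Both strands of the 250 bases before each start were searched for 9 motifs, chosen with the Edn1 sequence in view, so the matches are a description. In Edn1 the TATA box TATAAA stood at positions −110 to −105 from the annotated start. The sequence TGACTAA, a variant of the AP-1 motif, stood at −186 to −180. The GATA factor motif GATAA was read on the opposite strand at −214 to −210, and the hypoxia response core ACGTG on the opposite strand at −201 to −197. The FoxO motif TGTTTAC stood at −138 to −132. Among 33469 windows of the same length, TATAAA was present in 12.9%, TGACTAA in 1.99%, GATAA in 23.5%, ACGTG in 16.6% and TGTTTAC in 3.21%. The AP-1 consensus TGANTCA (6.34% of windows), the PPAR direct repeat (0.0508%), the NF-kappaB motif (0.0956%) and the CArG box (1.5%) had no match in the Edn1 window. None of the 9 motifs matched in the windows of Edn2, Ece1, Ece2, Ednra or Ednrb. The TATA box was searched as TATAAA only, so the close variant TATAAG in the printed Edn2 sequence was not counted. The windows of Edn1 and Edn2 held 56.4% and 69.6% G and C. Edn3 has no entry in the table used here. None of the motifs was tested for a part in the changes below.

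Edn1, the gene of endothelin-1, fell under DEHP in every array, and Ece2, one of the converting enzyme genes, fell by a small amount. The limma test across all 27342 probe sets called 2 of the 5 measured members, both lower under DEHP, and 0 higher, at a Benjamini-Hochberg adjusted p under 0.05. Over all 14324 genes the same test called 24.6%, with 10.2% lower and 14.4% higher under DEHP, and over all probe sets it called 18.3%. With 5 members the count itself is too small to set against these shares, so the sizes are given gene by gene. The 3 other members, Edn2, Edn3 and Ece1, did not pass.

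The log2 ratio of Edn1 had its lowest value at −1.63, its median at −1.35 and its highest at −1.15 in the 6 DEHP arrays, against 1.15, 1.46 and 1.53 in the 6 control arrays. The groups lay apart by a gap of 2.29 on the log2 scale, between DEHP replicate 6 and control replicate 5, the arrays nearest to the other group. In linear ratios the DEHP arrays ran from 0.324 to 0.452 and the control arrays from 2.21 to 2.89. The mean of Edn1 was −1.38 ± 0.17 in DEHP arrays, against 1.41 ± 0.14 in control arrays (SD, n = 6 each), which is 6.92-fold lower. Its limma log2 fold was −2.79 ± 0.08 (SE), with a 95% interval from −2.97 to −2.61 and an adjusted p of 9.95e-10. The exact two-sided permutation test over 924 splits of the arrays gave p = 0.0022, the smallest it can give. By size of fall Edn1 had rank 3 among the 14324 genes. Its pooled SD of 0.155 was larger than that of 65.3% of genes. In these bulk cultures, fewer cells of a type and less RNA per cell cannot be told apart.

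**Figure D1:**
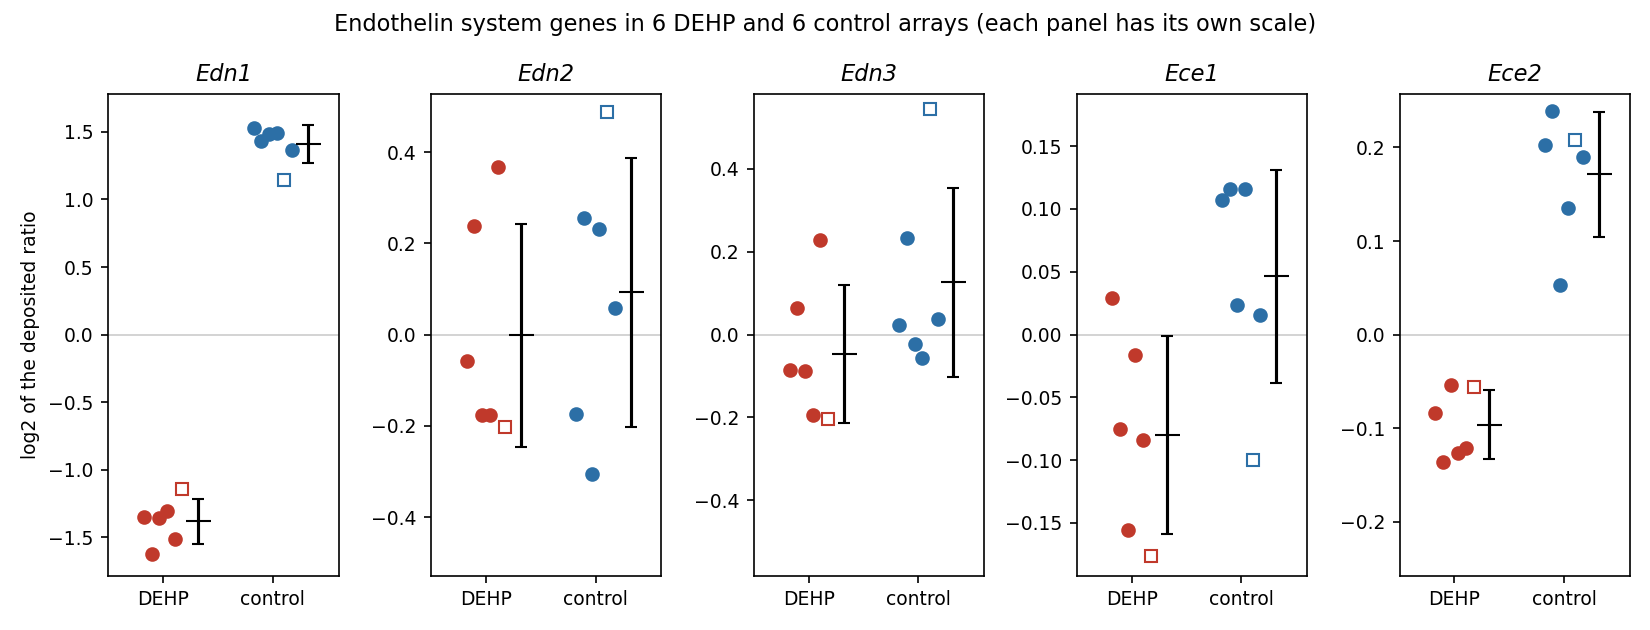
Log2 of the deposited ratio (y axis) for the 5 measured endothelin genes in DEHP (left, red) and control (right, blue) arrays, with the mean ± SD of 6 arrays beside each group; open squares are DEHP replicate 6 and control replicate 5, and each panel has its own scale. The groups of Edn1 lie 2.29 apart and those of Ece2 0.11 apart, while those of Edn2, Edn3 and Ece1 overlap.

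Edn2 encodes endothelin-2, a peptide close to endothelin-1 in sequence. Its log2 ratio ran from −0.20 through a median of −0.12 to 0.37 in DEHP arrays, against −0.30, 0.14 and 0.49 in control arrays. The groups overlapped over nearly their whole range. The log2 fold was −0.09 ± 0.14 (SE), with a 95% interval from −0.40 to 0.21 and a limma adjusted p of 0.70. Without control replicate 5 and DEHP replicate 6 the log2 fold of Edn2 was 0.026, and with single arrays left out it ran from −0.17 to −0.01, so no direction was settled. The interval leaves out a fall as large as that of Edn1.

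Edn3 encodes endothelin-3, the ligand that guides neural crest cells through ETB. It had a lowest log2 ratio of −0.21, a median of −0.09 and a highest of 0.23 in DEHP arrays, against −0.06, 0.03 and 0.54 in control arrays. The groups overlapped, and the highest value was that of control replicate 5. The log2 fold was −0.17 ± 0.11 (SE), with a 95% interval from −0.40 to 0.06 and a limma adjusted p of 0.33. Without control replicate 5 the log2 fold of Edn3 was −0.089 (limma adjusted p = 0.56), and without that array and DEHP replicate 6 it was −0.058 (adjusted p = 0.751). With replicate numbers fitted as a block, Edn3 passed (−0.17, limma adjusted p = 0.0198). Equal numbers were not taken as pairs here, so the call of Edn3 depended on the setting.

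Ece1 encodes the main endothelin-converting enzyme. Its log2 ratio ran from −0.18 through a median of −0.08 to 0.03 in DEHP arrays, against −0.10, 0.07 and 0.12 in control arrays. Control replicate 5 was the only control array below 0, and DEHP replicate 1 the only DEHP array above 0. Ece1 had a log2 fold of −0.13 ± 0.05 (SE; 95% interval −0.23 to −0.02), and its limma adjusted p of 0.11 did not pass, beside an unadjusted p of 0.024. Control replicate 5 decided this call: without that array the log2 fold was −0.16 with a limma adjusted p of 0.0239. Without control replicate 5 and DEHP replicate 6 together it was −0.14 with an adjusted p of 0.0418. The exact permutation test of Ece1 alone gave p = 0.030, which is not adjusted over genes.

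Ece2 encodes a related converting enzyme that works at acid pH and is known best from nervous tissue. It had a lowest log2 ratio of −0.14, a median of −0.10 and a highest of −0.05 in DEHP arrays, against 0.05, 0.20 and 0.24 in control arrays. The groups did not overlap, and the gap between them was 0.11. The mean of Ece2 was −0.10 ± 0.04 in DEHP arrays, against 0.17 ± 0.07 in control arrays (SD, n = 6 each), which is 1.2-fold lower. The log2 fold was −0.27 ± 0.04 (SE; 95% interval −0.35 to −0.19) with a limma adjusted p of 0.00023, and the exact permutation p was 0.0022. Its pooled SD of 0.054 was larger than that of only 7.19% of genes. Against a minimum fold of 1.2 Ece2 did not pass (adjusted p = 1 by limma's treat). Edn1 and Ece2 were thus the 2 of 5 members whose groups did not overlap with DEHP below control, a pattern seen in 6.88% of all genes, while 16.9% had groups apart in either direction.

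**Figure D2:**
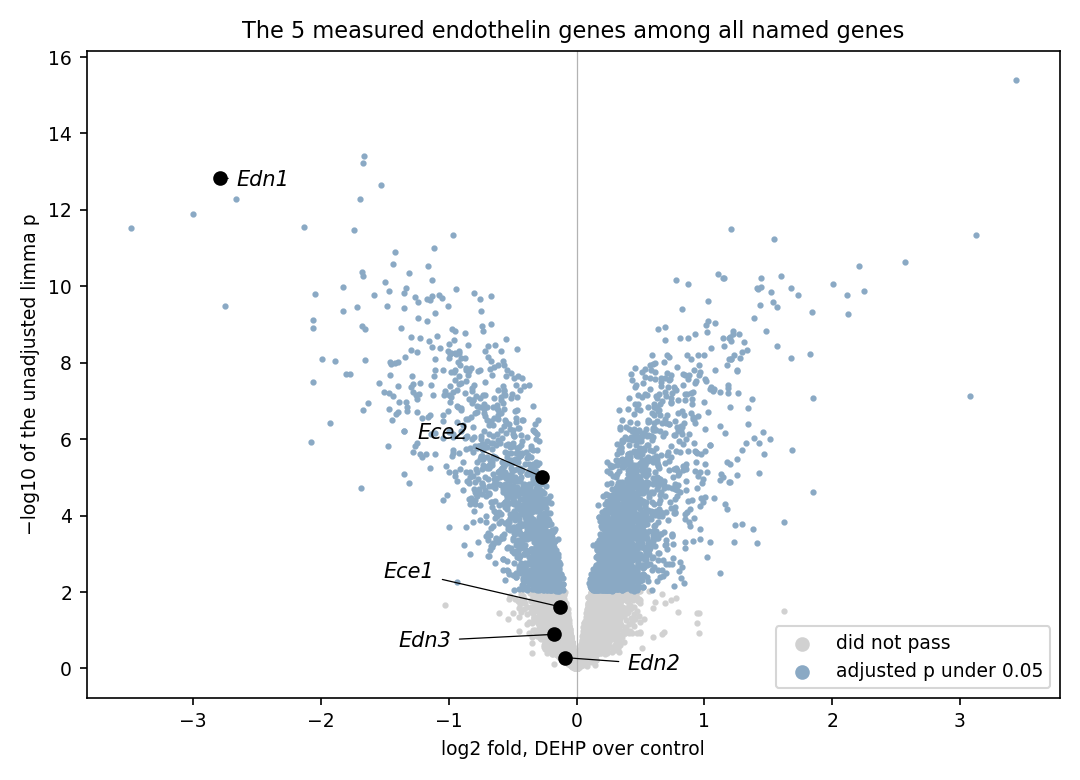
Limma log2 fold of DEHP over control (x axis) and −log10 of the unadjusted p (y axis) for 14324 genes, blue where the adjusted p was under 0.05 and grey otherwise, with the 5 endothelin genes in black. Edn1 sits among the largest falls at −2.79, Ece2 passes at −0.27, and Ece1, Edn3 and Edn2 lie among the genes that did not pass.

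The members changed unequally. For each of 10 pairs, the difference between 2 members within an array was compared between the groups by an exact two-sided permutation test, adjusted over the 10 pairs. Edn1 fell more than each other member: its change minus that of Ece2 was −2.52 on the log2 scale, and minus those of Edn3, Ece1 and Edn2 it was −2.62, −2.67 and −2.70, each with an adjusted exact p of 0.0054. The groups of Edn1 alone lay 2.29 apart, so these tests largely restate its own fall. Levels are not known, so whether the other probe sets could register a like fall could not be checked. No other pair passed. Ece1 and Ece2 differed in their change by 0.14 (adjusted exact p = 0.091), and Edn2 and Edn3 by 0.08 (adjusted exact p = 0.51).

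Within the groups the 3 ligand genes varied in a shared pattern. After the mean of each group was taken out, Edn2 and Edn3 had a Pearson r of 0.82 over the 12 arrays, while Edn1 ran against both, with r of −0.77 to Edn2 and −0.83 to Edn3. Replicates 2 and 5 of both groups lay above their group mean in Edn2 and in Edn3. Edn1 was below its group mean in DEHP replicates 2 and 5 and in control replicates 5 and 6. Not every array showed the opposition. In control replicate 6 Edn2 and Edn3 were below their means as well, and in control replicate 2 all 3 genes were above. Without control replicate 5 and DEHP replicate 6 the r was 0.73 between Edn2 and Edn3, −0.67 between Edn1 and Edn2 and −0.67 between Edn1 and Edn3. These are correlations between genes measured on the same arrays. Of 14314 genes, 10% had a lower r to Edn1 than Edn2 had and 4.41% had a lower r than Edn3, so many genes share this pattern. The converting enzyme genes did not share it as closely, with r to Edn1 of 0.28 for Ece1 and 0.06 for Ece2.

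**Figure D3:**
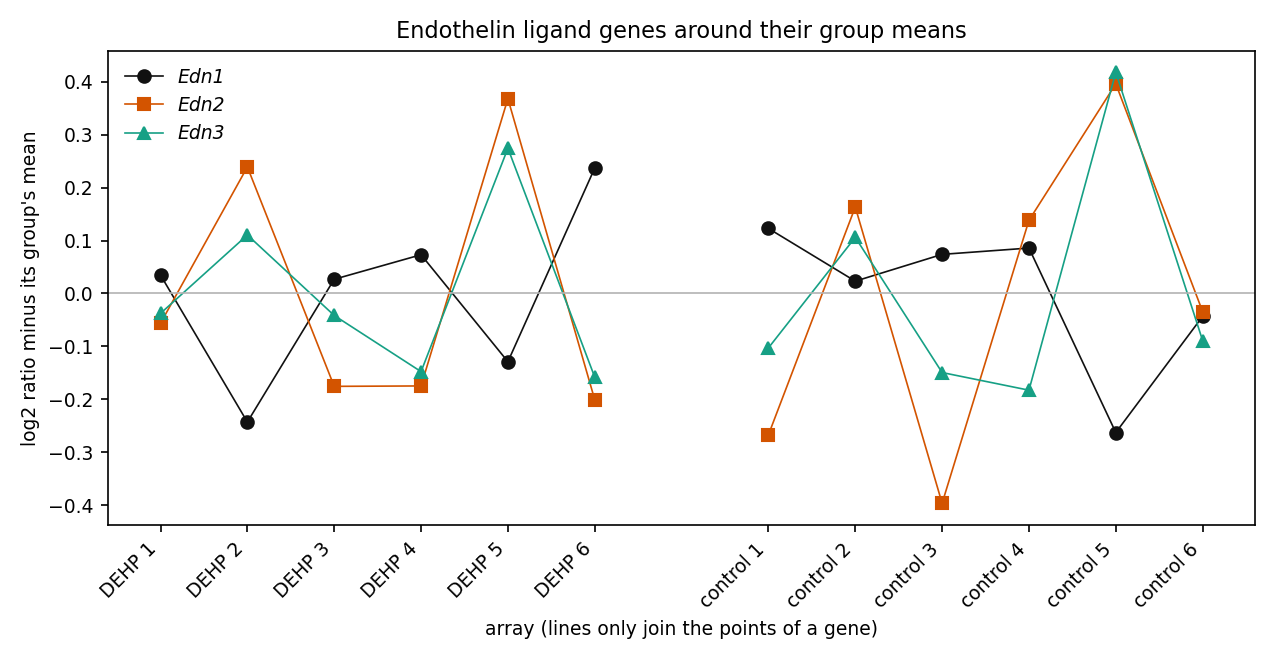
Log2 ratio of Edn1, Edn2 and Edn3 minus the mean of its group (y axis) in each DEHP and control array (x axis). Edn2 and Edn3 are high together in replicates 2 and 5 of both groups (r = 0.82), and Edn1 is lowest in DEHP replicate 2 and control replicate 5.

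The genes whose log2 ratios followed Edn1 most closely over the 12 arrays were Pdlim3 (Pearson r = 0.995), Hbegf (0.995), Scd2 (0.995), Xirp2 (0.994) and Ccn3 (0.992). They encode a Z-disc protein, a growth factor of the EGF family, a stearoyl-CoA desaturase, an actin-binding protein of the intercalated disc and a matricellular protein. All 5 fell under DEHP, with log2 folds from −2.66 to −1.42. The lowest r to Edn1 were those of Sema5a (−0.994), Pdk4 (−0.992) and Ablim1 (−0.990), which rose. These r mostly carry the difference between the groups that all such genes share. Once group means were removed, the closest genes were Kdsr (0.966), Stat6 (0.956), Sco1 (0.95), Utp14a (0.95) and Tmem63a (0.947). Of these only Tmem63a passed the limma test (log2 fold −0.26 ± 0.07, adjusted p = 0.022), and it did not without control replicate 2 (adjusted p = 0.0517) or control replicate 4 (0.0532). Sco1, Utp14a and Tmem63a had control replicate 5 far below the other controls.

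In a list of peptidases of endothelin processing and breakdown, more genes rose than fell. The list was drawn up with earlier results of these arrays known, so its count is no independent evidence of a direction. Of its 9 measured genes 5 rose, 1 fell and 3 did not pass by limma, beside 14.4% and 10.2% of all genes. The median log2 fold was 0.26 against −0.02 over all genes. Mme encodes neprilysin, a membrane peptidase that degrades endothelin-1, and was 2.38-fold higher. Its log2 ratio lay between 0.35 and 1.18 in DEHP arrays, against −1.23 to −0.35 in control arrays, so the groups did not overlap (log2 fold 1.25 ± 0.16 SE, adjusted p = 9.82e-05). The highest DEHP value was that of replicate 6 and the lowest control value that of replicate 5. Without both arrays the log2 fold of Mme was 1.02.

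Ctsa, which encodes cathepsin A, a lysosomal carboxypeptidase that can inactivate endothelin-1, rose (log2 fold 0.54 ± 0.04 SE, limma adjusted p = 1.66e-06). Mmp2 encodes a gelatinase that can also cut big endothelin-1, and rose by 0.70 ± 0.05. The proprotein convertase gene Pcsk5 rose by 0.69 ± 0.10, with 5 DEHP arrays between 0.51 and 0.64 and DEHP replicate 6 at 0.022. Leaving that array out gave a log2 fold of 0.78 for Pcsk5. Furin, the convertase best known for this step, did not pass (0.10 ± 0.06, limma adjusted p = 0.29). Of the other convertase genes, Pcsk7 rose (0.26 ± 0.05, adjusted p = 0.0044). Pcsk6 was the only gene of the list that fell (−0.45 ± 0.09, adjusted p = 0.0029).

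Genes of receptor coupling and Gq signalling went both ways. Of 30 measured, 4 rose, 5 fell and 21 did not pass, beside 14.4% higher and 10.2% lower of all genes, with a median log2 fold of −0.06. The regulators of G protein signalling Rgs4 (−1.31 ± 0.06 SE) and Rgs2 (−0.76 ± 0.10), which turn off Gq and Gi alpha subunits, fell. Trpc6, a diacylglycerol-gated cation channel, fell by 0.92 ± 0.07 on the log2 scale, and Itpr1, an inositol trisphosphate receptor, by 0.54 ± 0.07. Gnaq, the Gq alpha subunit, chosen after its values were seen, did not pass (−0.16 ± 0.07, limma adjusted p = 0.12), and Rhoa, a small GTPase activated downstream of the receptors, had −0.15 ± 0.05 (adjusted p = 0.054). The count of falls depended on the setting. It was 10 without control replicate 5, 12 without that array and DEHP replicate 6, 8 with quantile normalization and 11 with array weights. Calls over all probe sets changed too, with 7614 under array weights against 5016. The share of all genes called lower was not computed in these settings, so these counts cannot be set against the 10.2%. Gnaq passed without control replicate 5 (limma adjusted p = 0.0168), with quantile normalization (0.0467) and with array weights (0.0174). Rhoa passed in the same settings (0.00292, 0.0266 and 0.00308).

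Among 14 measured genes for factors that act on Edn1 transcription, 6 rose, 3 fell and 5 did not pass, beside 14.4% higher and 10.2% lower of all genes, with a median log2 fold of 0.09. Ppara, the nuclear receptor PPAR alpha, whose activators lower endothelin-1 output in cultured vascular and cardiac cells, rose (1.27 ± 0.08 SE, limma adjusted p = 4.41e-07). Hif1a, the oxygen-sensitive factor, rose by 0.49 ± 0.08. Gata4, a cardiac GATA factor, fell by 0.27 ± 0.06, and Fos, a subunit of AP-1, by 0.30 ± 0.05. The other AP-1 subunit, Jun, chosen after its values were seen, rose by 0.31 ± 0.08 (limma adjusted p = 0.016). Klf2, a shear-responsive factor that lowers Edn1 in endothelial cells, did not pass (−0.24 ± 0.12, adjusted p = 0.23).

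Genes that endothelin-1 raises in cultured cardiomyocytes were mostly lower. Of 13 measured, 8 fell, 2 rose and 3 did not pass by limma, beside 10.2% lower and 14.4% higher of all genes, with a median log2 fold of −0.30. Nppb, which encodes B-type natriuretic peptide, had log2 ratios between −0.58 and −0.42 in DEHP arrays, against 0.42 to 0.52 in control arrays. It was 1.96-fold lower (log2 fold −0.97 ± 0.04 SE, adjusted p = 8.39e-09). Nppa, the atrial peptide gene, had −0.80 ± 0.04 and Acta1, skeletal alpha-actin, −1.25 ± 0.09. Timp1, an inhibitor of metalloproteases, went the other way (0.43 ± 0.05). The ventricular light chain gene Myl2 did not pass (−0.43 ± 0.15, adjusted p = 0.068), with DEHP replicate 6 at −1.02, but without that array it had −0.27 with an adjusted p of 0.00495. Fos, Jun and Gata4 stand in this list and among the factors above. The list was drawn up with earlier results of these arrays known, so its count is no independent evidence of a direction.

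Of 14 genes of other vasoactive peptide systems and nitric oxide, 3 rose, 4 fell and 7 did not pass, beside 14.4% higher and 10.2% lower of all genes. Agt, the angiotensinogen gene, was 4.13-fold lower (log2 fold −2.05 ± 0.11 SE, limma adjusted p = 8.51e-08), with log2 ratios from −1.30 to −0.76 in DEHP arrays, against 0.76 to 1.29 in control arrays. For the adrenomedullin and CGRP receptors, the core gene Calcrl rose (0.76 ± 0.11) while its partner genes Ramp1 (−0.80 ± 0.12) and Ramp3 (−0.75 ± 0.07) fell. Nos3, endothelial nitric oxide synthase, did not pass (0.30 ± 0.10, adjusted p = 0.059), but passed without DEHP replicate 6 (0.39, adjusted p = 0.00155) or without control replicate 4 (0.34, adjusted p = 0.045). With all arrays Nos3 passed under quantile normalization (adjusted p = 0.0214), median centring (0.0489) and array weights (0.00943).

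**Figure D4:**
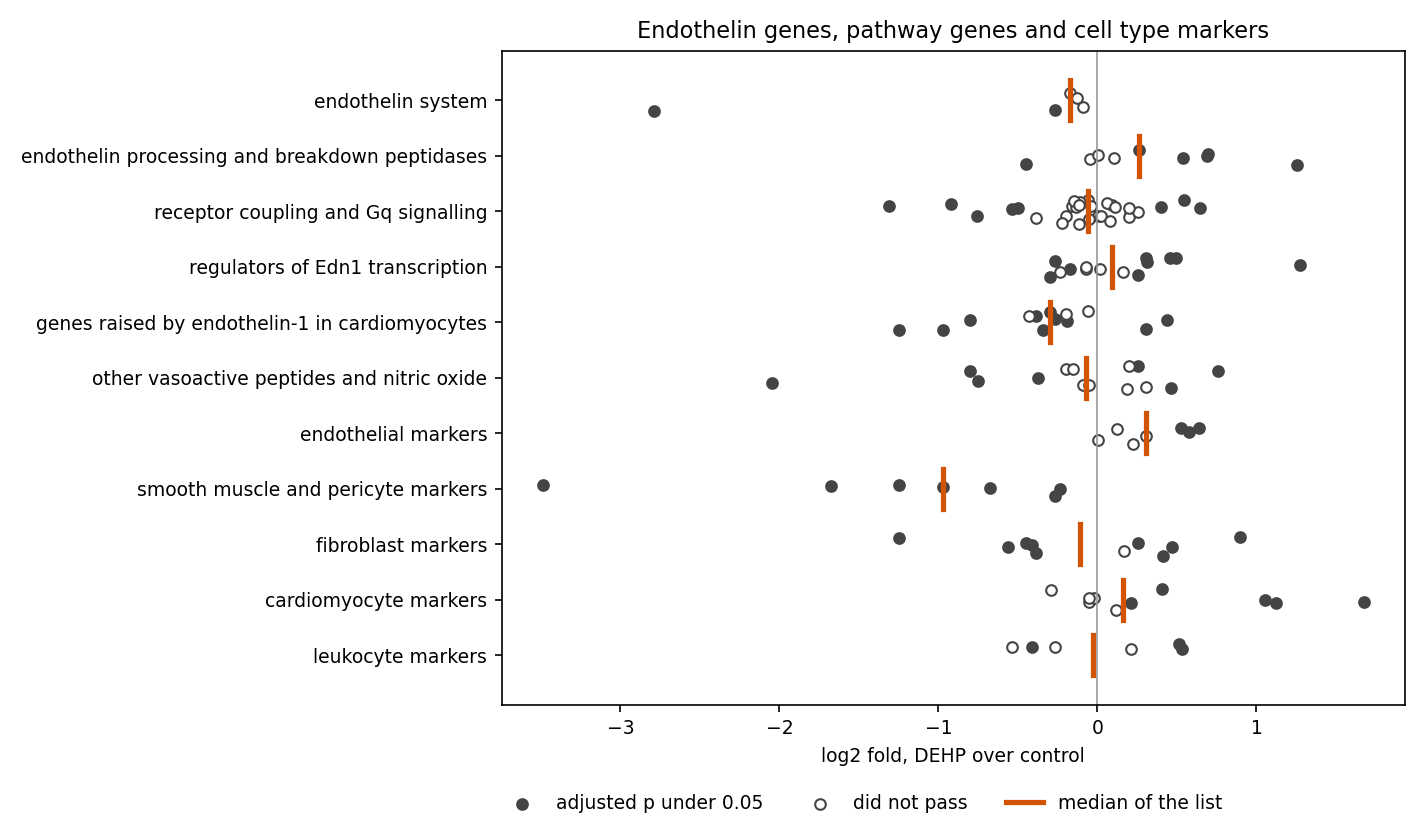
Limma log2 fold of DEHP over control (x axis) for each measured gene of the endothelin system, the pathway lists and the cell type marker lists (rows); filled points had an adjusted p under 0.05, and the bar is the median of the list. Edn1 lies at −2.79, the peptidases have a median of 0.26 and the smooth muscle and pericyte markers one of −0.97.

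Markers of cells that make or answer endothelins did not move as one. The counts from all arrays for each kind of cell stand beside the same 14.4% higher and 10.2% lower of all genes. With arrays left out, the shares of all genes called higher or lower were not computed. Of 7 measured endothelial markers 3 rose (Tie1, Emcn and Cdh5, with log2 folds of 0.58, 0.64 and 0.53), 0 fell and 4 did not pass, and without control replicate 5 and DEHP replicate 6 the rises numbered 5. Their mean log2 ratio ran from −0.20 to 0.48 in DEHP arrays, against −0.30 to 0.03 in control arrays, and DEHP replicate 6 was the lowest. The other 5 DEHP arrays lay above all 6 control arrays in this mean, and DEHP replicate 6 did not. A link of these markers to the change of Edn1 was not tested. All 7 measured smooth muscle and pericyte markers fell, led by Cnn1 (−3.49 ± 0.13 SE), Myh11 (−1.68 ± 0.10), Lmod1 (−0.97 ± 0.09) and Tagln (−1.25 ± 0.11). Smtn had −0.68 ± 0.09. The pericyte markers Pdgfrb (−0.27 ± 0.07) and Cspg4 (−0.23 ± 0.06) fell least. The mean of all 7 ran from −1.02 to −0.52 in DEHP arrays, against 0.48 to 0.62 in control arrays. Between the groups this mean fell, as Edn1 did. Among the DEHP arrays it was lowest in replicate 6 (−1.02), where Edn1 was highest (−1.15). The part of these markers in the fall of Edn1 was not tested.

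Of 10 fibroblast markers 4 rose, 5 fell and 1 did not pass. The rises were Pdgfra at 0.90 ± 0.07, Postn at 0.47 ± 0.04, Dcn at 0.41 ± 0.05 and Lum at 0.25 ± 0.06. Among the falls Thy1 had −1.25 ± 0.14 and Tcf21 −0.56 ± 0.16. The collagen genes Col3a1 (−0.45 ± 0.12), Col1a2 (−0.41 ± 0.07) and Col1a1 (−0.39 ± 0.05) fell as well. Ddr2 did not pass (0.16 ± 0.07, limma adjusted p = 0.17). Of 10 cardiomyocyte markers 5 rose, among them Myh6, Atp2a2, Ryr2 and Ttn, 0 fell and 5 did not pass. Without control replicate 4 the rises numbered 3, and Ttn was one of those lost (0.37, adjusted p = 0.0544). Of 6 leukocyte markers Cd68 and Itgam rose, Csf1r fell and 3 did not pass, while without DEHP replicate 6 the falls numbered 3 and included Adgre1 (−0.79, adjusted p = 0.00039).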

How the data were processed

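Biotin-labelled RNA of 12 cultures was hybridised to Affymetrix arrays, 1 array per culture. RMA processed the arrays, per the submitters' processing notes, with version and settings not given in the sources used here. The authors deposited linear ratios. The median log2 ratio of each probe set over the 12 arrays was within 5e-07 of 0, so levels and brightness over background are not known, and the number of arrays sets the precision. Of 27342 probe sets, 15097 had 1 gene symbol, 323 several and 11922 none in the annotation used here. All 5 measured members matched the RefSeq table by Entrez identifier.

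Log2 ratios were fitted without further normalization by lmFit and eBayes (limma 3.58.1, R 4.3.3), two-sided, with Benjamini-Hochberg adjustment over all probe sets. Log2 folds are DEHP over control, n = 6 each. On simulated arrays with independent normal noise, 50 probe sets were changed at each size. The test recovered 40% of probe sets changed by 0.25, 84% by 0.5 and 96% by 1. It made 168 calls there, against 5016 on the real arrays, so these shares are not its power on the real arrays. Genes with several probe sets took the lowest-numbered one. From each list the text could name up to 6 genes that passed and 2 that did not, by smallest p, of which 4 and 1 were taken. In the peptidase, smooth muscle and fibroblast lists every gene that passed was then named. The members and lists were chosen with earlier results of these data known. Alternatives were quantile normalization, median centring, array weights, robust eBayes, a minimum fold of 1.2, an adjusted p under 0.01, a replicate block and leaving arrays out. A filter on dim probe sets was not possible without levels. Plots used matplotlib 3.10.9.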

Additional observations from a re-analysis of the deposited data

Results flagged for a closer look

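In each group of 6 arrays, a value was picked out where its gap to the nearest other value was over 0.625 of the range of the group. Of 134 groups from 67 of the named genes 27 had such a value (20.1%), where chance alone gives about 1 in 20. None was in a member of the endothelin system. DEHP replicate 6 held 18 of them and control replicate 5 held 5, the arrays with the widest spread over all probe sets.

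In DEHP replicate 6 the log2 ratio was 0.022 for Pcsk5, 1.18 for Mme, −0.92 for Rgs2, −0.99 for Rgs4, −0.24 for Fos, 0.57 for Hif1a, −0.69 for Klf2, −0.86 for Acta1, −1.02 for Myl2 and −0.30 for Nos3. Among marker genes of the same array it was −1.26 for Tagln, 0.78 for Pdgfra, 0.42 for Ddr2, −1.42 for Thy1, −0.76 for Tnni3, 0.47 for Myh6, 0.33 for Atp2a2 and 0.98 for Adgre1. Adgre1, a macrophage marker, was at most −0.41 in the other DEHP arrays. In control replicate 5 the log2 ratio was −1.23 for Mme, 0.00094 for Myl2, −0.41 for Sco1, −0.48 for Utp14a and −0.12 for Tmem63a. The remaining values were those of Ryr2 (0.84) and Ttn (0.68) in DEHP replicate 2, Mmp2 (0.24) in DEHP replicate 3 and Cnn1 (1.77) in control replicate 4.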

How the results depend on the processing

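Edn1 kept its fall and its call under every alternative run, with log2 folds from −2.94 to −2.74 and limma adjusted p from 3.42e-12 to 4.94e-07. Ece2 kept its fall in all of them (−0.29 to −0.25) and its call in all but the minimum fold of 1.2 (−0.27, adjusted p = 1), where the endothelin genes called lower numbered 1. Ece1 passed with array weights (−0.14), without control replicate 5 and DEHP replicate 6 together (−0.14) and by the exact permutation test (−0.13), and ran from −0.16 to −0.11 with single arrays left out. Without those 2 arrays Edn2 was 0.026, the difference of Edn3 minus Ece1 was 0.078 against −0.05, Stat6 was −0.0022 and Kdsr −0.081. Kdsr was −0.0095 with array weights, and with single arrays left out Kdsr ran from −0.0079 to 0.11 and Stat6 from 0.038 to 0.12. Equal replicate numbers were not taken as pairs, since the correlation of deviations between same-numbered arrays was 0.07 for number 6, although it was 0.13 to 0.77 for the others, and 2 of 6 DEHP arrays correlated best with their own number. With the replicate block 6541 probe sets passed, Edn3 had −0.17 with a limma adjusted p of 0.0198, Edn1 4.94e-07, Ece2 0.00248, Ece1 0.0556 and Edn2 0.402, and the falls in Gq signalling numbered 9, with Gnaq (0.0266), Rhoa (0.0487) and Nos3 (0.0341) past the threshold.

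Of all probe sets 5016 passed, 7614 with array weights, 1182 at a minimum fold of 1.2, 3238 at an adjusted p under 0.01 and 4211 to 5556 with single arrays left out. Of genes 3527 passed, 870 at the minimum fold, 2339 at the stricter p and 2997 to 3888 with single arrays left out. At the minimum fold the peptidases held 0 falls, Gq signalling 1 rise, the transcription factors 1 rise and 0 falls, the endothelin-1 responsive genes 0 rises and 3 falls, other vasoactive genes 1 rise, endothelial markers 0 rises, fibroblast markers 2 rises and 1 fall, cardiomyocyte markers 3 rises, and leukocyte markers 0 rises and 0 falls. At the stricter p the rises were 2 in Gq signalling, 3 in the transcription factors, 1 in the endothelin-1 responsive genes and 3 in cardiomyocyte markers, with 3 falls in fibroblast markers. Falls in Gq signalling were 8 with quantile normalization, 11 with array weights, 12 without both arrays and 5 to 10 with single arrays left out. Leukocyte falls were 2 with quantile normalization, 3 with array weights, 3 without both arrays and 1 to 3 with single arrays left out. Endothelial rises were 5 without both arrays, and cardiomyocyte rises were 3 to 5 with single arrays left out. The shares of all genes called higher or lower were not computed under these settings, so the list counts have none beside them. The cause of these shifts was not tested. The alternative of another probe set for a member gave no value, as each measured member has 1.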
